A study of Mus musculus with 8 samples.

Results

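Chemokines are small secreted proteins that guide the movement of leukocytes and other cells, and each acts through 1 or more receptors that span the cell membrane. The genes described here are all those on the array whose symbol names a chemokine ligand (Ccl, Cxcl, Cx3cl, Xcl) or a chemokine receptor (Ccr, Cxcr, Cx3cr, Xcr). They number 56 of the 16593 genes with a probe, 38 of them ligands and 18 receptors, and where a gene had several probes the brightest on average was taken.

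RNA of whole lungs was hybridised to Illumina MouseRef-8 v2 BeadChips at embryonic day 18.5. There were 2 arrays in each of 4 groups: Snx5-/- air, Snx5+/+ air, Snx5-/- non-air and Snx5+/+ non-air. Snx5-/- embryos were homozygous for a gene-trap cassette in an intron of Snx5, which encodes an endosomal sorting nexin, from a single embryonic stem cell line backcrossed to C57BL/6. Snx5+/+ embryos were wild type. Air lungs came from pups delivered by caesarean section that had breathed room air, and non-air lungs from embryos that had not. The study's methods call the replicates biological, and neither they nor the labels say whether an array held 1 embryo or a pool.

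Across the array, 47.5% to 49.4% of probes were above background on each array (detection p under 0.01). The Snx5 probe that differed between genotypes averaged 7.20 in Snx5-/- air lungs against 8.13 in Snx5+/+ air lungs, and 7.24 in Snx5-/- non-air lungs against 7.86 in Snx5+/+ non-air lungs, on the log2 intensity scale. It was above background on only 1 of the 8 arrays, in Snx5+/+ air lungs, and was too dim to be tested in non-air lungs alone. A second Snx5 probe was below background on every array. It averaged 7.45 in Snx5-/- against 7.55 in Snx5+/+ air lungs, and 7.50 in Snx5-/- against 7.53 in Snx5+/+ non-air lungs. None of the 56 chemokine genes lies on the chromosome of Snx5. The deposited tables disagree about the air state. A raw intensity column labelled air tracks the log2 column labelled non-air of its own genotype and replicate, and the reverse (Spearman's rho across probes 0.99975 to 0.99982, and at most 0.972 with any other column). Groups below are those of the log2 table, which the detection p-values also follow. With the intensity table's labels, air and non-air results would change places, and each air comparison would change sign. The tables agree on genotype, which leaves the averaged genotype difference as it is. One label field of the Snx5-/- non-air samples reads wild type, against their titles and their genotype field, and they were grouped by the title.

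In the late fetal lung, chemokine transcripts can come from epithelium, mesenchyme, vessels and resident leukocytes such as macrophages. Homeostatic ligands such as Cxcl12 and Ccl21 position cells during development and in lymphoid tissue, whereas inflammatory ligands such as Cxcl1, Ccl3 and Ccl4 are induced by cytokines, microbes or injury. The promoters of the Cxcl1 gene and its neighbours on chromosome 5 are shown because Cxcl1 changed most between genotypes. Of its neighbours, Cxcl15 was not called. Cxcl2 and Cxcl3 were below background on every array, so whether they changed could not be seen. In RefSeq (GRCm38.p6), Cxcl3, Cxcl15, Cxcl1 and Cxcl2 are consecutive protein-coding genes. The windows of 300 bases lie mostly before the transcription start and run 5′ to 3′, and capitals mark matches to the NF-kappaB consensus, which overlap on both strands.
Cxcl1 (chr5:90890995-90891294, + strand): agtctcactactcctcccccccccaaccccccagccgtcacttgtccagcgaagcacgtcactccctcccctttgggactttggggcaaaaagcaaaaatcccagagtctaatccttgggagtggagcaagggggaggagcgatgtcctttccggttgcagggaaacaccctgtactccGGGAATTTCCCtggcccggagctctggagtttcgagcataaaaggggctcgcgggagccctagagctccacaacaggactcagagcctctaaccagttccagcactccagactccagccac
Cxcl2 (chr5:90903649-90903948, + strand): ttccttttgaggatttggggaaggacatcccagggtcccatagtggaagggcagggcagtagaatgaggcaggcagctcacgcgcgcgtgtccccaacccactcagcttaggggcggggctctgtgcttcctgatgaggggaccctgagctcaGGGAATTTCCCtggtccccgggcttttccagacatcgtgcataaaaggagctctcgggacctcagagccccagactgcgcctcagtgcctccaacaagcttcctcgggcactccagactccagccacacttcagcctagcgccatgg
Cxcl3 (chr5:90785851-90786150, + strand): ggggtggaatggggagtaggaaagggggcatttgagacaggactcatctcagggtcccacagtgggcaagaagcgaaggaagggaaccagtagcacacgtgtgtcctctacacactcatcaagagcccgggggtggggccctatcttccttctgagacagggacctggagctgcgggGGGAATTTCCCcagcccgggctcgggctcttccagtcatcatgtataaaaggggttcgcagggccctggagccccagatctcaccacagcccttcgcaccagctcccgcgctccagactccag
Cxcl15 (chr5:90794284-90794583, + strand): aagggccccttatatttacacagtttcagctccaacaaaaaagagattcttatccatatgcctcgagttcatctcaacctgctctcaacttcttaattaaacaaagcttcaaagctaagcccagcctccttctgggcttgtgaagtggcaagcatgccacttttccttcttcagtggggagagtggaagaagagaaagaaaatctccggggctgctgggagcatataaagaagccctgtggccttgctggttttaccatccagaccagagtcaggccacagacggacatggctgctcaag

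The matched stretch lies at positions -71 to -61 of the start in Cxcl1, at -97 to -87 in Cxcl2 and at -73 to -63 in Cxcl3, with the same letters in all 3 genes. The Cxcl15 window holds no match. Of 41 chemokine genes with a promoter in the RefSeq table, 11 had a match to the NF-kappaB consensus on either strand, and 9.55% of all 27025 genes in that table had one. For the AP-1 motif TGANTCA these figures were 8 of 41 and 8.97%, and no window of these 4 genes held it. A match is a description of the letters and not a binding site.

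Most chemokine genes were below background in these lungs. Of the 56, 16 were above background on all 8 arrays, 22 on at least 1 array and 34 on none. Ligands accounted for most of those detected, with 19 of 38 above background on at least 1 array, against 3 of 18 receptors. By group, 20 genes were above background on both arrays in Snx5-/- air lungs and 19 in Snx5+/+ air lungs, against 18 in Snx5-/- non-air lungs and 16 in Snx5+/+ non-air lungs. All 10 CC receptors were below background on every array, among them Ccr7, the receptor of Ccl21, Ccr3, the receptor of Ccl11, and Ccr2, the receptor of Ccl12. The interferon-inducible ligands Cxcl9, Cxcl10 and Cxcl11 and the neutrophil-attracting ligands Cxcl2, Cxcl3 and Cxcl5 were also below background throughout.

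**Figure D1:**
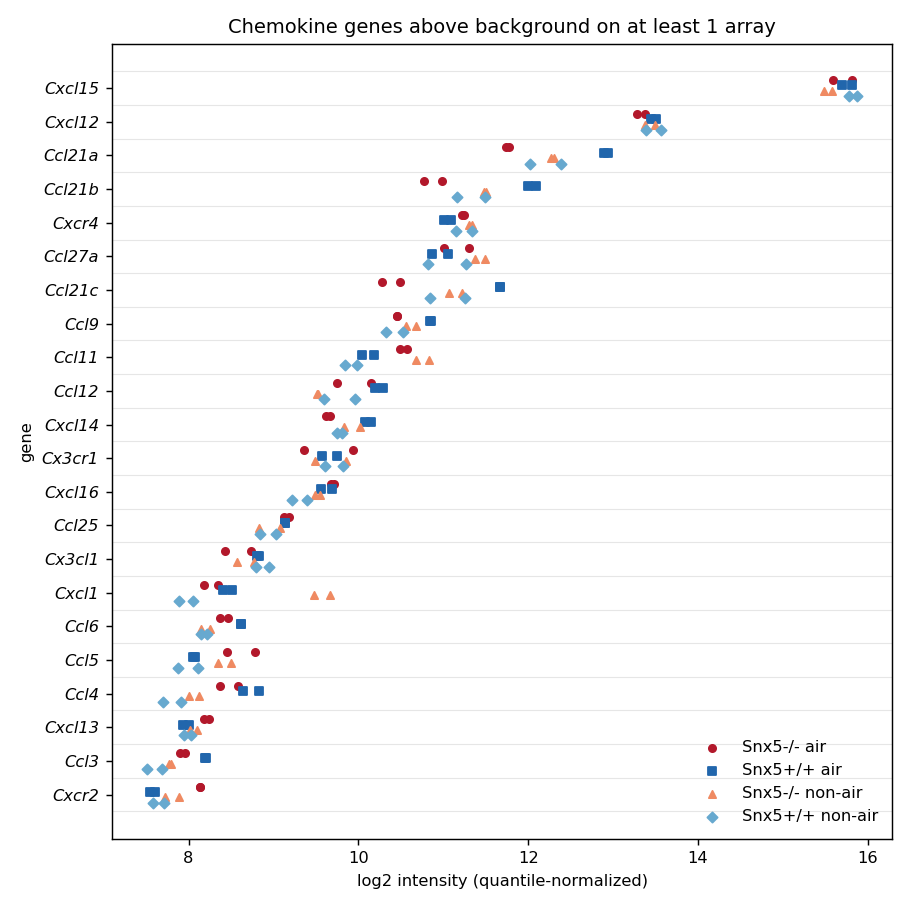
Log2 intensity (x axis) of the 22 chemokine genes above background on at least 1 array, ordered by their mean over the 8 arrays (y axis). Each point is 1 array, coloured by group; Cxcl15 and Cxcl12 lie at the top, and the groups part most at Cxcl1 and the Ccl21 genes.

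The brightest probe was that of Cxcl15 (lungkine), a CXC ligand made by lung epithelium. It read 15.81 and 15.59 in Snx5-/- air lungs, 15.81 and 15.70 in Snx5+/+ air lungs, 15.48 and 15.58 in Snx5-/- non-air lungs, and 15.78 and 15.87 in Snx5+/+ non-air lungs. Both Snx5-/- non-air values lay below both Snx5+/+ non-air values, but the difference did not pass the test (log2 difference -0.30, SE 0.111, limma adjusted p = 0.307). Levels of different genes come from different probes and are not set against each other here.

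Cxcl12, the stromal ligand of Cxcr4, read 13.28 and 13.38 in Snx5-/- air lungs, 13.50 and 13.45 in Snx5+/+ air lungs, 13.37 and 13.49 in Snx5-/- non-air lungs, and 13.57 and 13.39 in Snx5+/+ non-air lungs. Cxcr4 itself read 11.24 and 11.22 in Snx5-/- air lungs, 11.09 and 11.01 in Snx5+/+ air lungs, 11.33 and 11.30 in Snx5-/- non-air lungs, and 11.14 and 11.34 in Snx5+/+ non-air lungs. With the probe used for each, neither gene was called in any of the 6 comparisons. A second Cxcl12 probe, above background on all 8 arrays, averaged 9.12 in Snx5-/- against 9.55 in Snx5+/+ air lungs. In non-air lungs it averaged 9.59 in Snx5-/- against 9.22 in Snx5+/+ lungs. Another, also above background on all 8, averaged 8.74 in Snx5-/- against 8.46 in Snx5+/+ air lungs. In non-air lungs that probe averaged 8.70 in Snx5-/- against 8.72 in Snx5+/+ lungs. Their genotype differences in air thus had opposite signs. A gene is called here where limma's adjusted p over all probes tested was under 0.05 and its log2 difference exceeded the study's fold threshold of about 0.35.

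The interaction of genotype with air state found 4 chemokine genes, all with a lower genotype difference in air than in non-air lungs: Cxcl1, Ccl21a, Ccl21b and Ccl21c. They were 4 of 24 chemokine genes tested, against 0.239% of all genes tested called in that direction. In the other direction none was called by limma, 1 had an unadjusted p under 0.05, and 0.249% of all genes were called. The Cxcl1 and Ccl21 probes differed in opposite states, as the following values show.

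Cxcl1, a neutrophil attractant that acts through Cxcr2, rose 3.04-fold in Snx5-/- non-air lungs. Its log2 intensity was 9.48 and 9.66 in Snx5-/- non-air lungs, against 8.05 and 7.89 in Snx5+/+ non-air lungs, where only 1 of the arrays was above background. Cxcl1 entered the non-air test through Snx5-/- lungs alone, as its Snx5+/+ mean was 7.97. In air it was 8.35 and 8.18 in Snx5-/- lungs against 8.41 and 8.51 in Snx5+/+ lungs. The Snx5-/- non-air arrays thus stood above all 6 others, which spanned 7.89 to 8.51. The log2 difference between genotypes was 1.60 in non-air lungs (SE 0.114, limma adjusted p = 4.31e-05) and -0.20 in air lungs (SE 0.114, adjusted p = 0.463), and the difference of these differences was -1.80 (SE 0.162, adjusted p = 0.000205). Within Snx5-/- lungs Cxcl1 was 2.47-fold lower in air than in non-air lungs (log2 difference -1.31, adjusted p = 0.000214), whereas within Snx5+/+ lungs the log2 difference of 0.49 did not pass the test (adjusted p = 0.0892). These Cxcl1 calls remained when any 1 array was left out.

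Of the other neutrophil-attracting ligands, Cxcl15 was above background on every array. As given above, it was lower in Snx5-/- non-air lungs without passing the test. Cxcl2, Cxcl3 and Cxcl5 gave no signal to compare. Cxcl2 read 7.55 and 7.41 in Snx5-/- non-air lungs against 7.35 and 7.38 in Snx5+/+ non-air lungs, and Cxcl3 read 7.15 and 7.33 in Snx5-/- non-air lungs against 7.25 and 7.28 in Snx5+/+ non-air lungs. Cxcl5 read 7.45 and 7.33 in Snx5-/- non-air lungs against 7.21 and 7.32 in Snx5+/+ non-air lungs. All of these values were below background, so whether the 3 genes differed could not be seen. The promoters of Cxcl2 and Cxcl3 hold the same NF-kappaB letters as that of Cxcl1, as printed above.

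Ccl11 (eotaxin), which attracts eosinophils through Ccr3, was higher in Snx5-/- lungs in both states. It read 10.68 and 10.84 in Snx5-/- non-air lungs against 9.99 and 9.84 in Snx5+/+ non-air lungs, a 1.79-fold difference (log2 0.84, SE 0.109, adjusted p = 0.00592). In air it read 10.58 and 10.49 in Snx5-/- lungs against 10.18 and 10.05 in Snx5+/+ lungs, a log2 difference of 0.42 that missed the threshold (adjusted p = 0.0781). All 4 Snx5-/- arrays lay above all 4 Snx5+/+ arrays, and averaged over both states Ccl11 rose 1.55-fold (log2 0.63, SE 0.0772, adjusted p = 0.00101). The non-air call was lost without either Snx5-/- non-air array (adjusted p = 0.0698 and 0.143), and the averaged call remained without any 1 array. A second Ccl11 probe was above background on 1 array only.

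In non-air lungs, Cxcl1 and Ccl11 were the 2 chemokine genes called higher in Snx5-/- lungs, of 21 tested, where 0.266% of all genes tested were called higher. None was called lower by limma, 1 (Cxcl15) had an unadjusted p under 0.05, and 0.373% of all genes were called lower. The median log2 difference of the 21 genes was 0.08, and that of all genes tested was 0.00047. Of the list of inflammatory and NF-kappaB genes, Nfkbiz and Saa3 also rose among 18 tested. Nfkbiz, a nuclear IkappaB protein, read 13.11 and 13.09 in Snx5-/- non-air lungs against 12.58 and 12.55 in Snx5+/+ non-air lungs. Saa3, an acute-phase protein, read 10.97 and 10.88 in Snx5-/- non-air lungs against 10.09 and 9.44 in Snx5+/+ non-air lungs. Of the cytokines in that list, Il1a, Tnf and Il6 were below background on every array. Il1b was below background on all 4 non-air arrays and was called higher with air in Snx5-/- lungs, at least 1.68-fold (adjusted p = 0.0143).

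Genes of other cells moved with the same contrast. Of 15 neutrophil genes on the array, 10 were above background on at least 1 array, and S100a9 was the only member called higher in Snx5-/- non-air lungs, among 11 tested. The mean log2 intensity of these 15 genes was 9.03 to 9.06 in Snx5-/- non-air lungs against 8.73 to 8.89 in Snx5+/+ non-air lungs, and the granule enzymes Elane, Mpo, Prtn3 and Ctsg were below background throughout. Of 6 liver genes, 3 were tested, and all 3 (Ahsg, Apoa1 and Fga) were called higher in Snx5-/- non-air lungs. They entered the test through that group alone and could only come out higher. Ahsg read 8.31 and 8.65 in Snx5-/- against 7.40 and 7.54 in Snx5+/+ lungs. Apoa1 was called from values below background on every array, and Alb, Afp and Ttr were below background too. The mean of the 6 was 7.87 to 7.90 in Snx5-/- non-air lungs against 7.35 to 7.39 in Snx5+/+ non-air lungs. Of 7 endothelial genes tested, Eng and Car4 were called lower in Snx5-/- non-air lungs, as were the type I cell gene Aqp5 and the interferon response genes Ifit3 and Rsad2. The airway gene Scgb3a1 was called higher, at 9.29 and 9.70 in Snx5-/- non-air lungs against 8.65 and 8.25 in Snx5+/+ non-air lungs. The part of these cells and transcripts in the Cxcl1 and Ccl11 differences was not tested, and in whole lungs more cells of a type and more RNA per cell cannot be told apart.

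**Figure D2:**
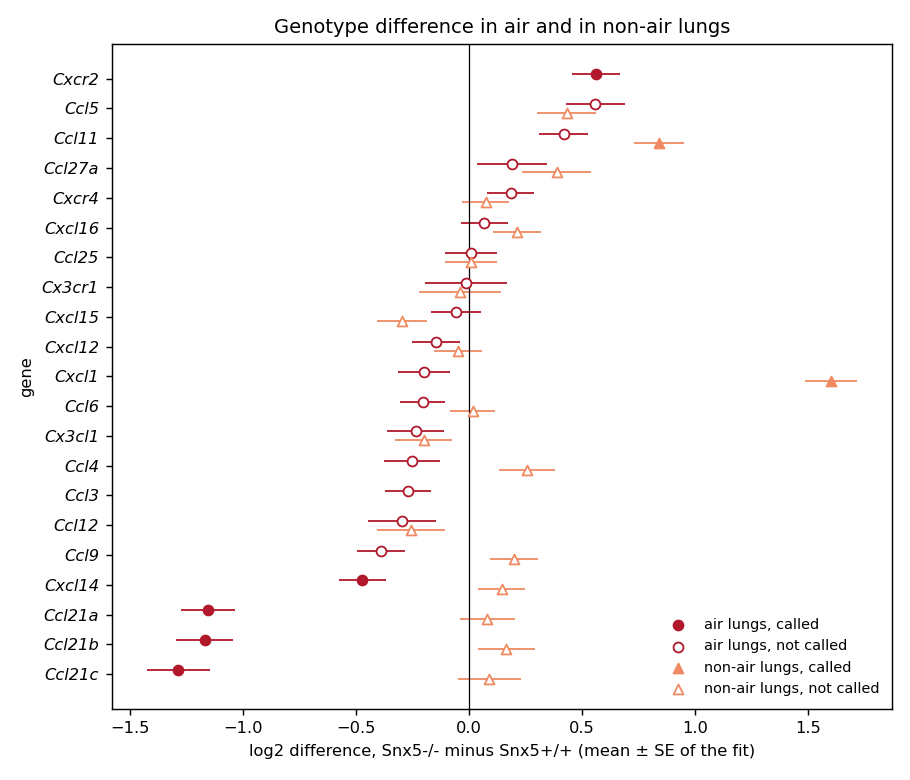
Log2 difference in intensity, Snx5-/- minus Snx5+/+ (x axis, estimate with SE of the fit), for each named chemokine gene (y axis) in air lungs (circles) and non-air lungs (triangles); filled symbols are called, and a gene without a triangle was not tested in non-air lungs. Cxcl1 lies at 1.60 in non-air lungs and -0.20 in air lungs, and the Ccl21 genes lie at -1.15 to -1.28 in air lungs and close to 0 in non-air lungs.

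In air lungs, the 4 chemokine genes called lower in Snx5-/- lungs were Ccl21a, Ccl21b, Ccl21c and Cxcl14, of 24 tested, where 1.32% of all genes tested were called lower. The median log2 difference of the 24 genes was -0.10, against 0.0031 over all genes tested. Ccl21 is the ligand that draws dendritic cells and lymphocytes through Ccr7 and is made by lymphatic endothelium and lymphoid stroma. The mouse carries near-identical copies of it, so the 3 probes cannot be taken as 3 independent genes. Their values correlated across the 8 arrays with r of 0.973 to 0.987.

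Ccl21a read 11.77 and 11.74 in Snx5-/- air lungs against 12.89 and 12.93 in Snx5+/+ air lungs, and was 2.22-fold lower in Snx5-/- lungs (log2 difference -1.15, SE 0.121, adjusted p = 0.000382). In non-air lungs it read 12.27 and 12.30 in Snx5-/- lungs against 12.38 and 12.02 in Snx5+/+ lungs, and the groups overlapped. The Snx5-/- air arrays were the lowest of all 8 and the Snx5+/+ air arrays the highest. The interaction was -1.24 (SE 0.172, adjusted p = 0.0064).

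The Ccl21b probe read 10.78 and 10.98 in Snx5-/- air lungs against 12.00 and 12.10 in Snx5+/+ air lungs, a 2.25-fold lower level (adjusted p = 0.000419). The Ccl21c probe read 10.28 and 10.49 in Snx5-/- air lungs against 11.67 on both Snx5+/+ air arrays, a 2.43-fold lower level (adjusted p = 0.000424). In non-air lungs Ccl21b read 11.48 and 11.50 in Snx5-/- lungs against 11.49 and 11.16 in Snx5+/+ lungs, and Ccl21c read 11.06 and 11.22 in Snx5-/- lungs against 11.25 and 10.85 in Snx5+/+ lungs. Each probe thus split the air lungs by genotype and not the non-air lungs. The air calls of all 3 probes remained without any 1 array, but the interaction calls of Ccl21a and Ccl21c were lost without replicate 2 of the Snx5-/- non-air arrays (adjusted p = 0.0589 and 0.0742), and that of Ccl21c also without replicate 1 of Snx5-/- air (adjusted p = 0.0504). With neqc normalization, the adjusted p of the 3 interactions was 0.0575 to 0.0703.

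Cxcl14, an epithelial and stromal ligand, read 9.62 and 9.67 in Snx5-/- air lungs against 10.15 and 10.08 in Snx5+/+ air lungs, a 1.39-fold lower level (log2 -0.47, SE 0.104, adjusted p = 0.0395). A second Cxcl14 probe, above background on 3 arrays, averaged 8.07 in Snx5-/- air lungs and 8.11 in Snx5+/+ air lungs. In non-air lungs the first probe read 9.83 and 10.03 in Snx5-/- lungs against 9.75 and 9.81 in Snx5+/+ lungs. Its call in air was lost without any 1 of the 4 air arrays or the 2 Snx5-/- non-air arrays (adjusted p of 0.063 to 0.26).

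Cxcr2, the neutrophil receptor of Cxcl1, was the chemokine gene called higher in Snx5-/- air lungs, where 1.05% of all genes tested were called higher. It entered the test through that group alone, at a mean of 8.14 against 7.58 in Snx5+/+ air lungs, and could only come out higher. It read 8.14 on both Snx5-/- air arrays, 1 of which was above background, against 7.54 and 7.61 in Snx5+/+ air lungs, where it was not. It was therefore at least 1.10-fold higher (adjusted p = 0.016), and the call was lost without any 1 of the 4 air arrays (adjusted p of 0.0876 to 0.164). A second Cxcr2 probe was below background on every array. Ccl5, an attractant of T cells and monocytes, read 8.46 and 8.79 in Snx5-/- air lungs and was not above background in Snx5+/+ air lungs, at least 1.47-fold higher with an adjusted p of 0.0508.

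The arrays of the air contrast also differed in the sex of the lungs. Xist, transcribed from the inactive X chromosome of females, read 7.83 and 7.77 in Snx5-/- air lungs against 12.32 and 12.38 in Snx5+/+ air lungs, and it was 11.82 to 12.58 on the 4 non-air arrays. The Y-linked Eif2s3y read 11.81 and 11.73 in Snx5-/- air lungs and was below background on the other 6 arrays, as was the Y-linked Kdm5d. Another Y-linked gene, Uty, read 8.79 and 8.75 in Snx5-/- air lungs against 8.26 and 8.28 in Snx5+/+ air lungs, and was above background on these 4 arrays and on 1 Snx5+/+ non-air array. Sex therefore moves with genotype in air lungs, with air in Snx5-/- lungs and with the interaction, and in these comparisons it cannot be told apart from them. On all 4 non-air arrays Xist was above background and Eif2s3y and Kdm5d were not.

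Neutrophil genes moved with the air contrast as well. S100a9, Retnlg and Csf3r were called higher in Snx5-/- air lungs of 11 neutrophil genes tested, with Retnlg at 10.20 and 10.29 in Snx5-/- against 9.25 and 9.16 in Snx5+/+ lungs. The mean of the 15 neutrophil genes was 9.39 to 9.48 in Snx5-/- air lungs against 9.14 to 9.20 in Snx5+/+ air lungs. Of 7 endothelial genes tested, none was called by limma in air lungs and 4 were lower at an unadjusted p under 0.05. The means of the 8 endothelial genes on the array were 11.48 to 11.49 in Snx5-/- air lungs against 11.65 to 11.74 in Snx5+/+ air lungs. Of 4 lymphatic endothelial genes, chosen after the values were seen, Lyve1 read 12.68 and 12.45 in Snx5-/- air lungs against 12.90 on both Snx5+/+ air arrays, and Reln 9.89 and 9.70 in Snx5-/- air lungs against 10.54 and 10.46 in Snx5+/+ air lungs, while Prox1 was below background on all air arrays. In non-air lungs Reln read 9.95 and 9.76 in Snx5-/- lungs against 10.46 and 10.30 in Snx5+/+ lungs. Reln was called lower in Snx5-/- lungs in air, of 2 such genes tested, and on average, of 4 tested. In non-air lungs none of the 4 was called, and 2 were lower at an unadjusted limma p under 0.05. Of 7 interferon response genes tested in air lungs, Irf1, Gbp2 and Ifit3 were called higher and Rsad2 lower in Snx5-/- lungs, and of 3 type I cell genes Ager and Pdpn were called lower. The fibroblast gene Col1a2 was called lower and the cytokine gene Csf2 higher. The part of these cells and responses in the Ccl21, Ccl5, Cxcl14 and Cxcr2 differences was not tested.

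**Figure D3:**
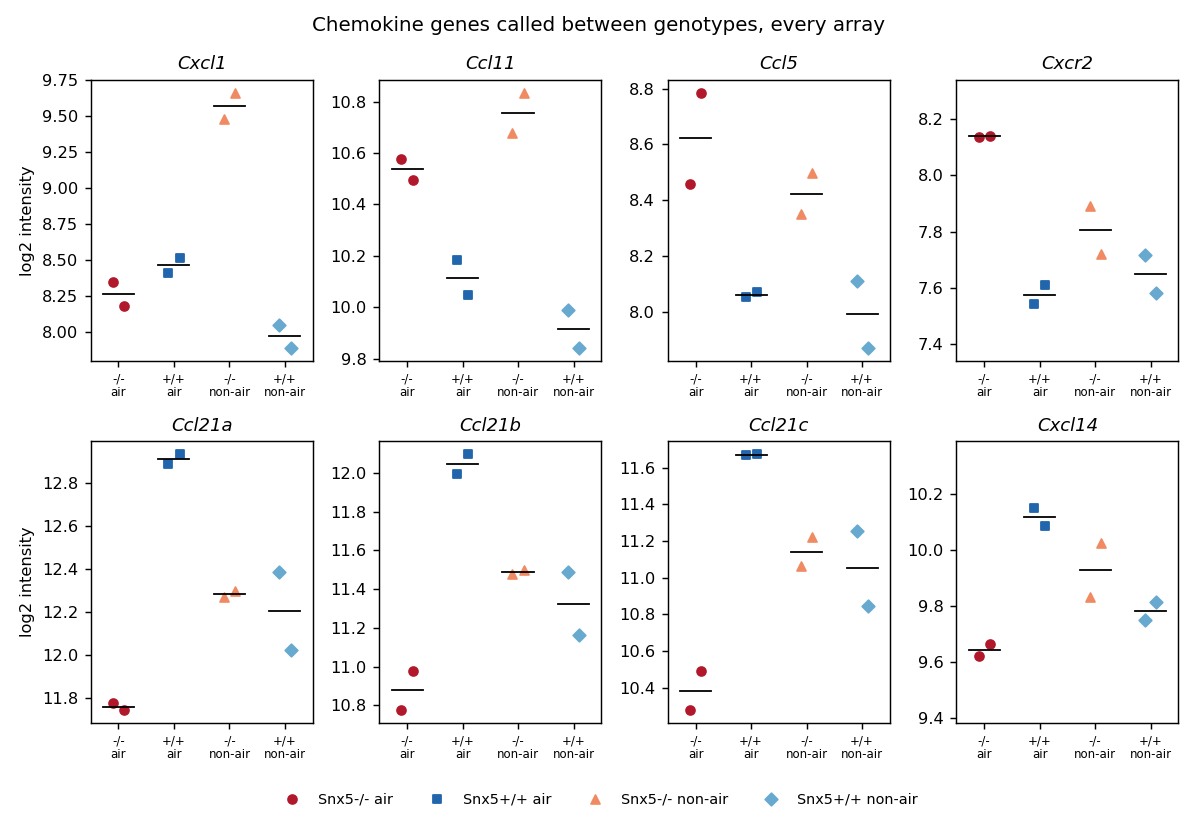
Log2 intensity (y axis) of the 8 chemokine genes called between genotypes in air lungs, in non-air lungs or in the average of both, for each of the 4 groups (x axis); points are arrays, lines are means of 2 arrays, and each panel has its own y range. Cxcl1 stands apart in Snx5-/- non-air lungs, at 9.48 and 9.66, and Ccl11 is higher in Snx5-/- lungs in both states, whereas the 3 Ccl21 probes are lowest in Snx5-/- air lungs and highest in Snx5+/+ air lungs.

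Averaged over both states, a contrast that does not depend on the air labels, Ccl11, Ccl5, Cxcl1 and Cxcr2 were called higher in Snx5-/- lungs of 24 chemokine genes tested, where 0.882% of all genes were called higher. Cxcr2 was above background on 1 Snx5-/- air array only and entered the test through that group alone, at a mean of 8.14. No lower bound of its averaged fold above 1 could be stated. Ccl21a, Ccl21b and Ccl21c were called lower, where 1.53% of all genes were called lower. The averaged differences of Cxcl1 (0.70) and the Ccl21 probes (-0.60 to -0.50) are means over states that differed from each other, as the interaction shows. In this comparison too Eif2s3y and Kdm5d were called higher and Xist lower in Snx5-/- lungs, through the 2 air arrays, and the part of sex in its calls was not tested. Ccl5 was at least 1.39-fold higher in Snx5-/- lungs (adjusted p = 0.013), with 8.46 and 8.79 in Snx5-/- air and 8.35 and 8.50 in Snx5-/- non-air lungs against 8.05 and 8.07 in Snx5+/+ air and 8.11 and 7.87 in Snx5+/+ non-air lungs. All 4 Snx5-/- arrays were above background for it and all 4 Snx5+/+ arrays were not. Its averaged call was lost without any of 4 arrays, replicate 2 of Snx5-/- air, replicate 2 of Snx5-/- non-air and both Snx5+/+ air arrays (adjusted p of 0.0526 to 0.0868). The averaged call of Ccl21b was lost without either Snx5-/- non-air array or replicate 2 of Snx5+/+ air (adjusted p of 0.0533 to 0.0568), and that of Cxcr2 without any 1 array other than replicate 1 of Snx5+/+ non-air (adjusted p of 0.0527 to 0.13).

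Ccl5 is made chiefly by T and NK cells and by activated macrophages. All 7 T cell genes on the array, Cd3d, Cd3e and Cd3g among them, were below background on every array, and 2 of 7 NK cell genes were above it on at least 1 array. The mean of the NK cell genes was 8.31 to 8.36 in Snx5-/- air lungs against 8.17 to 8.18 in Snx5+/+ air lungs, and 8.17 to 8.22 in Snx5-/- non-air lungs against 8.07 to 8.15 in Snx5+/+ non-air lungs. Klrd1 was the NK cell gene called higher in Snx5-/- lungs, in air (adjusted p = 0.0332) and on average (adjusted p = 0.00353), among 3 tested in each. It read 8.30 and 8.16 in Snx5-/- air and 8.002 and 7.93 in Snx5-/- non-air lungs, against 7.78 and 7.73 in Snx5+/+ air and 7.47 and 7.52 in Snx5+/+ non-air lungs, and was above background on 1 Snx5-/- air array. All 4 Snx5-/- values lay above all 4 Snx5+/+ values, and the averaged difference was at least 1.09-fold. Prf1, the NK cell gene above background on every array, was called in neither comparison. In air it read 12.23 and 12.53 in Snx5-/- against 11.86 and 11.97 in Snx5+/+ lungs. In non-air lungs it read 11.997 and 11.96 against 12.15 and 11.54, and the genotypes overlapped. All 3 genes tested were higher in both comparisons at an unadjusted limma p under 0.05. Klrd1 and Nkg7 entered both tests through Snx5-/- air lungs alone, at means of 8.23 and 8.09. In air they could therefore only come out higher. Nkg7 was below background on every array, and Ncr1, Klrb1c, Gzma and Gzmb were too dim to be tested. The part of NK cells in the Ccl5 difference was not tested.

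Within Snx5+/+ lungs, Ccl3, Ccl4, Ccl21a and Ccl21b were called higher in air than in non-air lungs, of 21 chemokine genes tested, where 0.605% of all genes were, and 11 had an unadjusted p under 0.05. None was called lower by limma, none had an unadjusted p under 0.05 in that direction, and 0.191% of all genes were called lower. Leaving out replicate 1 of the Snx5+/+ non-air arrays raised the count called higher to 9, whereas leaving out replicate 2, either Snx5+/+ air array or either Snx5-/- non-air array left 0 or 1.

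Ccl3 and Ccl4, the macrophage inflammatory proteins, were below background in non-air lungs of both genotypes. In Snx5+/+ lungs they entered the test through the air group alone, at means of 8.20 and 8.73, and could only come out higher. Ccl4 read 8.64 and 8.83 in Snx5+/+ air lungs against 7.92 and 7.70 in Snx5+/+ non-air lungs, at least 1.72-fold higher (adjusted p = 0.00429). In Snx5-/- lungs it read 8.37 and 8.59 in air against 8.002 and 8.13 in non-air lungs, at least 1.31-fold higher with an adjusted p of 0.234. A second Ccl4 probe was below background on every array. The Ccl4 call was lost without replicate 2 of Snx5+/+ air (adjusted p = 0.101). Ccl3 read 8.19 and 8.21 in Snx5+/+ air lungs against 7.69 and 7.51 in Snx5+/+ non-air lungs, at least 1.19-fold higher (adjusted p = 0.0212), and was below background in all Snx5-/- lungs. Whether the air response of either gene differed by genotype did not pass the test (interaction adjusted p = 0.28 for Ccl3 and 0.303 for Ccl4).

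The other macrophage-associated ligands showed values in the same direction without passing the test. Ccl9 read 10.84 and 10.85 in Snx5+/+ air lungs against 10.52 and 10.32 in Snx5+/+ non-air lungs (adjusted p = 0.106), and Ccl6 8.62 on both Snx5+/+ air arrays against 8.22 and 8.15 in Snx5+/+ non-air lungs (adjusted p = 0.0832). Ccl12, a monocyte attractant, read 10.20 and 10.29 in Snx5+/+ air lungs against 9.96 and 9.59 in Snx5+/+ non-air lungs (adjusted p = 0.188). In none of the 3 did the air and non-air arrays of Snx5+/+ lungs overlap. Of 10 macrophage and monocyte genes tested, none was called by limma in this comparison and 2 were higher at an unadjusted p under 0.05. The means of the 12 such genes on the array were 9.70 on both Snx5+/+ air arrays against 9.54 to 9.63 in Snx5+/+ non-air lungs. Neutrophil genes were higher in Snx5+/+ air lungs too, with S100a8, S100a9, Camp, Ltf and Lcn2 called of 10 tested and means over the list of 9.14 to 9.20 in Snx5+/+ air against 8.73 to 8.89 in Snx5+/+ non-air lungs. Saa3 was called higher and Ifit3 lower. The part of these cells and genes was not tested.

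Ccl21a and Ccl21b were also called higher in Snx5+/+ air than in Snx5+/+ non-air lungs, 1.64-fold and 1.65-fold (adjusted p = 0.0225 and 0.0241), whereas Ccl21c, at 1.54-fold, missed the threshold (adjusted p = 0.0794). The calls of Ccl3, Ccl21a and Ccl21b were each lost without replicate 2 of Snx5+/+ non-air, either Snx5+/+ air array or either Snx5-/- non-air array (adjusted p of 0.0613 to 0.325), and within the arrays of this comparison alone only Ccl4 was called. In Snx5-/- lungs the same probes moved the other way: Ccl21c was 1.69-fold lower in air than in non-air lungs (adjusted p = 0.0328), and Ccl21a and Ccl21b were 1.44-fold and 1.53-fold lower without passing the test (adjusted p = 0.101 and 0.0603). The Ccl21c call was lost without any 1 of the 6 arrays that are not Snx5+/+ non-air (adjusted p of 0.0668 to 0.39). With Cxcl1 it made 2 of 23 chemokine genes called lower in Snx5-/- air than in Snx5-/- non-air lungs, where 0.0956% of all genes were. None was called higher by limma, 3 (Ccl4, Ccl12 and Cxcr2) had an unadjusted p under 0.05, and 0.605% of all genes were called higher.

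Of 11 chemokine genes under other names and atypical receptors, such as Pf4, Ppbp and the scavenging receptor Ackr2, 8 were tested between genotypes. Only Ackr3, the atypical receptor of Cxcl12, was called. It read 8.32 and 8.26 in Snx5-/- air lungs against 9.17 and 9.01 in Snx5+/+ air lungs (log2 difference -0.80, adjusted p = 0.00574), and 8.30 and 8.43 in Snx5-/- non-air lungs against 8.50 and 8.18 in Snx5+/+ non-air lungs. Its interaction did not pass the test (adjusted p = 0.0967). Of 17 genes of chemokine receptor signalling on the array, 12 to 14 were tested per comparison. Only Rgs1, which shortens signalling by these receptors, was called. It was called lower in Snx5-/- lungs in air and on average, and lower in the interaction. It entered these tests through Snx5+/+ air lungs alone, so between genotypes in air it could only come out lower. Rgs1 was above background in Snx5+/+ air lungs alone, at 8.80 and 8.85, and read 7.70 and 7.31 in Snx5-/- air lungs, 7.46 on both Snx5-/- non-air arrays, and 7.42 and 7.60 in Snx5+/+ non-air lungs. Both Ackr3 and Rgs1 were also called higher with air in Snx5+/+ lungs.

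**Figure D4:**
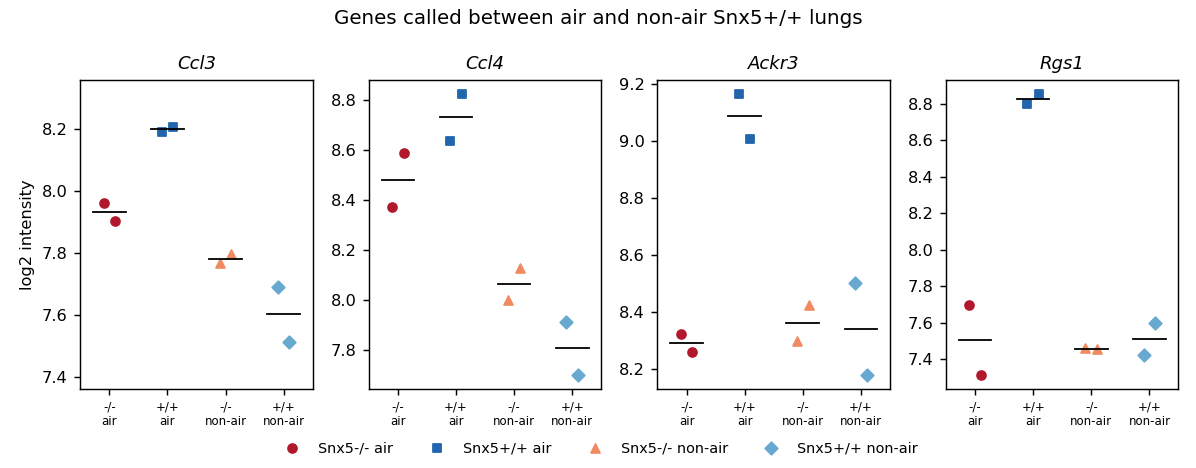
Log2 intensity (y axis, own range in each panel) of Ccl3, Ccl4, Ackr3 and Rgs1 in the 4 groups (x axis); points are arrays and lines are means of 2 arrays. In all 4 genes the Snx5+/+ air arrays are the highest group, with Rgs1 at 8.80 and 8.85 there and at most 7.70 elsewhere.

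The remaining genes above background on all arrays were called in none of the 6 comparisons. Ccl27a, an epithelial ligand, read 11.004 and 11.30 in Snx5-/- air lungs, 10.87 and 11.06 in Snx5+/+ air lungs, 11.38 and 11.49 in Snx5-/- non-air lungs, and 11.27 and 10.82 in Snx5+/+ non-air lungs. Its log2 difference between genotypes in non-air lungs was 0.39 (adjusted p = 0.327), and without replicate 1 of Snx5+/+ non-air it was called higher there and on average. Cxcl16, the transmembrane ligand of Cxcr6, read 9.71 and 9.68 in Snx5-/- air lungs, 9.69 and 9.56 in Snx5+/+ air lungs, 9.54 and 9.50 in Snx5-/- non-air lungs, and 9.40 and 9.22 in Snx5+/+ non-air lungs. Ccl25, known for drawing thymocytes through Ccr9, read 9.18 and 9.12 in Snx5-/- air lungs, 9.14 on both Snx5+/+ air arrays, 8.83 and 9.07 in Snx5-/- non-air lungs, and 9.04 and 8.84 in Snx5+/+ non-air lungs. For these 3 genes the Snx5-/- and Snx5+/+ arrays overlapped in air, and only Cxcl16 and Ccl27a separated by genotype in non-air lungs. A second Ccl27a probe, above background on all 8 arrays, did not separate there. It read 9.23 and 9.14 in Snx5-/- against 9.15 and 8.64 in Snx5+/+ non-air lungs.

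Cx3cl1 (fractalkine) and its receptor Cx3cr1, which marks monocytes and macrophages, were both above background on every array. Cx3cl1 read 8.43 and 8.73 in Snx5-/- air lungs, 8.83 and 8.80 in Snx5+/+ air lungs, 8.77 and 8.57 in Snx5-/- non-air lungs, and 8.95 and 8.80 in Snx5+/+ non-air lungs. All 4 Snx5-/- values lay below all 4 Snx5+/+ values, with an averaged log2 difference of -0.22 that did not pass the test (adjusted p = 0.269). Cx3cr1 read 9.94 and 9.36 in Snx5-/- air lungs, 9.75 and 9.57 in Snx5+/+ air lungs, 9.86 and 9.49 in Snx5-/- non-air lungs, and 9.82 and 9.61 in Snx5+/+ non-air lungs. Its arrays overlapped between all groups.

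Between genotypes, Ccl9, Ccl6 and Ccl12 did not pass the test in either state. Ccl9 read 10.46 on both Snx5-/- air arrays against 10.84 and 10.85 in Snx5+/+ air lungs (log2 difference -0.39, adjusted p = 0.0917), and 10.56 and 10.68 in Snx5-/- non-air lungs against 10.52 and 10.32 in Snx5+/+ non-air lungs. Ccl6 read 8.47 and 8.37 in Snx5-/- air lungs and 8.25 and 8.15 in Snx5-/- non-air lungs, and Ccl12 read 9.74 and 10.15 in Snx5-/- air lungs and 9.53 and 9.51 in Snx5-/- non-air lungs. Cxcl13, a B cell attractant, was above background in Snx5-/- air lungs alone, at 8.18 and 8.24 against 7.94 and 8.003 in Snx5+/+ air lungs, at least 1.16-fold higher with an adjusted p of 0.275.

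**Figure D5:**
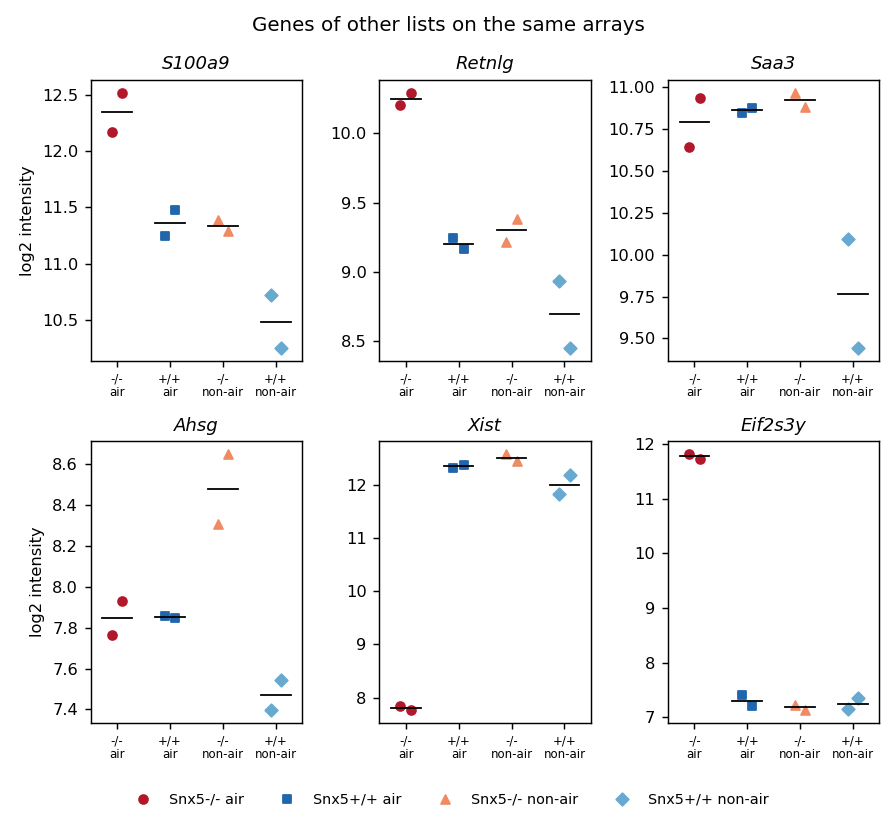
Log2 intensity (y axis, own range in each panel) of S100a9, Retnlg, Saa3, Ahsg, Xist and Eif2s3y in the 4 groups (x axis); points are arrays and lines are means of 2 arrays. Xist is near 7.8 and Eif2s3y near 11.8 in Snx5-/- air lungs only, Ahsg is highest in Snx5-/- non-air lungs, and S100a9 and Retnlg are highest in Snx5-/- air lungs.

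Chemokine genes that lie side by side were not all called together. On chromosome 11, Ccl2, Ccl7, Ccl11, Ccl12, Ccl8 and Ccl1 are consecutive protein-coding genes in RefSeq, and of these Ccl11 alone was called between genotypes. Ccl2, Ccl7, Ccl8 and Ccl1 were below background on every array, so whether they differed could not be seen. Ccl5, Ccl9, Ccl6, Ccl3 and Ccl4 form another run on that chromosome. In it Ccl5 was higher in Snx5-/- lungs on average, Ccl3 and Ccl4 were higher with air in Snx5+/+ lungs, and Ccl9 and Ccl6 were called in no comparison, although with air in Snx5+/+ lungs both were higher at an unadjusted p under 0.05, as Ccl3 and Ccl4 were.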

How the data were processed

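The authors deposited log2 intensities, quantile-normalized per the study's methods, for 25697 probes, and a table of raw bead intensities with detection p-values; all columns were used, and no depth exists for arrays, so the number of arrays limits the precision. Gene symbols came from the platform annotation (23978 probes with 1 symbol, 0 with several, 1719 with none), and all 56 genes were found in RefSeq. Log2 values were fitted with limma 3.58.1 in R 4.3.3 over all 8 arrays with a mean per group, keeping probes with a group mean above 8 in a compared group. P-values were adjusted by Benjamini-Hochberg over all probes tested, and a gene was called at an adjusted p under 0.05 and a log2 difference above 0.3531. A probe not above background in a group gave a lower bound of the fold, taken against each array's dimmest detected probe where that was brighter. The percentages of all genes called count 1 probe per gene. The combined permutation test of the study was not run; its t-test was an alternative, with other normalizations, filters, probe averaging, a replicate block and leave-one-out. Values in every sample were given for genes called anywhere, above background on all arrays, or among the 3 with the most different levels per genotype comparison. The members and lists were chosen with earlier results of these data known. The fit was tested on simulated data in which only brighter probes were changed. Of log2 changes of 0.5 it called 2% in the interaction and 34% to 71% in the other comparisons. Of changes of 1 it called 54% and 79% to 94%. Differences of this size, above all interactions, can therefore be missed.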

Additional observations from a re-analysis of the deposited data

Results flagged for a closer look

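The genotype difference of 4 chemokine genes depended on the air state by a test of the difference itself, the interaction term of the fit. The difference in air lungs minus that in non-air lungs was -1.80 for Cxcl1 (limma adjusted p = 0.000205), -1.24 for Ccl21a (adjusted p = 0.0064), -1.33 for Ccl21b (adjusted p = 0.0043) and -1.38 for Ccl21c (adjusted p = 0.00755). For Cxcl1 the genotypes differed in non-air lungs, and for the Ccl21 probes in air lungs. The Y-linked Eif2s3y and Kdm5d were above background on the Snx5-/- air arrays only, and Xist on all others, so sex cannot be told apart from the interaction. With the labels of the raw intensity table, all 4 values change sign.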

How the results depend on the processing

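With the raw intensities under their own labels, the air and non-air results changed places. Between genotypes in air lungs, 2 chemokine genes were then called higher (Ccl11, Cxcl1) and 0 lower, and in non-air lungs 1 higher (Cxcr2) and 4 lower (the 3 Ccl21 probes and Cxcl14). Air against non-air called 2 higher and 0 lower in Snx5-/- lungs, and 0 higher and 4 lower in Snx5+/+ lungs, and the interaction called 4 higher and 0 lower. The log2 differences that changed sign were, between genotypes in air, 0.083 for Ccl21a, 0.17 for Ccl21b, 0.091 for Ccl21c and 0.15 for Cxcl14, and in non-air lungs -0.23 for Cxcl1. For air in Snx5-/- lungs they were 0.76 for Ccl21c and 1.33 for Cxcl1, and in Snx5+/+ lungs -0.71 for Ccl21a, -0.72 for Ccl21b, -0.60 for Ccl3 and -0.87 for Ccl4. The interactions were 1.23 for Ccl21a, 1.33 for Ccl21b, 1.37 for Ccl21c and 1.83 for Cxcl1. The averaged genotype comparison called the same genes, 4 higher and 3 lower. No other alternative reversed a call, and the cause of the changes below was not tested.

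The methods' t-test with Benjamini-Hochberg called 0 genes in each of the 5 comparisons it can make, where limma called 1 and 4 (air), 2 and 0 (non-air), 4 and 3 (averaged), 0 and 2 (air in Snx5-/-) and 4 and 0 (air in Snx5+/+) higher and lower. At an unadjusted p under 0.05 it had 5 higher and 6 lower between genotypes in air, 2 and 1 in non-air, 4 and 1 averaged, 2 and 5 for air in Snx5-/- and 5 and 0 for air in Snx5+/+ lungs. With no intensity filter, 2 were called higher between genotypes in air, as with the arrays of that comparison only (Ccl5 and Cxcr2 in both), and with the detection filter 0 (2 arrays had to be above background in a group, and Cxcr2 had 1). With neqc, 1 was called lower for air in Snx5-/- lungs (Cxcl1), 2 higher for air in Snx5+/+ lungs (Ccl3, Ccl4) and 1 lower for the interaction (Cxcl1). With the arrays of the comparison only, 4 were called lower for air in Snx5-/- and 1 higher for air in Snx5+/+ lungs. Median scaling, averaging of probes and the absence of a fold cutoff left each count within 1.5 times. Averaging the probes of a gene nevertheless lost Cxcr2, Cxcl14 in air (adjusted p = 0.188) and Ccl4 for air in Snx5+/+ lungs (adjusted p = 0.0979), and neqc lost Cxcl14 in air (adjusted p = 0.0723) and Ccl21b on average (adjusted p = 0.0539).

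Leaving out each array in turn gave 0 to 2 genes called higher and 3 to 5 lower between genotypes in air, 1 to 3 higher in non-air, 2 to 5 higher and 2 to 3 lower on average, 1 to 4 lower for air in Snx5-/- lungs, 0 to 9 higher for air in Snx5+/+ lungs, and 2 to 5 lower for the interaction. The other counts stayed at 0.

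Same-numbered arrays of different groups deviated together only in part (correlations of -0.227 to 0.278). With 2 arrays per group this cannot show whether the numbers pair the arrays. With the replicate number as a block, 1 gene (Cxcl1) in place of 2 was called lower for air in Snx5-/- lungs, Ccl21c being lost (adjusted p = 0.0541), and 3 in place of 4 were called lower between genotypes in air, Cxcl14 being lost (adjusted p = 0.0567); no other call changed. At a detection p under 0.05, 18 genes were above background on all arrays, 25 on at least 1 and 31 on none. The 2 arrays per group and probes close to background limit what can be seen for Ccl3, Ccl4, Ccl5 and Cxcr2.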
